A study of Mus musculus with 3 samples.

Results

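The 8 genes described here encode secreted proteins of the bone morphogenetic protein (BMP) and transforming growth factor beta (TGF-beta) family and their antagonists. They are Bmp2, Bmp4, Bmp6, Tgfb1, Tgfb2, Tgfb3, Grem1 and Fst, matched by gene symbol among the 27998 genes of the matrices, and each symbol matched 1 row. All 8 had at least 1 UMI (unique molecular identifier, a tag that counts 1 captured RNA molecule) in the called cells of every library. The members were set by name, with earlier results of these data known.

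The study made 3 droplet single-cell RNA libraries of marrow niche cells from female CB6F1 mice, 1 for each of WT, BMT and aGVHD. WT mice were untreated. BMT (bone marrow transplantation) mice, which carry CD45.2, were given 4.0 Gy of irradiation 2 times and, 4 hours later, marrow nucleated cells of B6.SJL donors (CD45.1+) intravenously. The aGVHD (acute graft-versus-host disease) mice had the same irradiation and marrow, and spleen cells of female C57BL/6 donors in addition, so every aGVHD and BMT value shares the irradiation and the marrow graft. Cells positive for CD45, a lineage mix or CD71 were depleted, and Calcein AM and DAPI selected the live ones. The number of mice behind a library and the day of collection are not analysed here. Each group is a single library, so no spread between replicates and no p-value exist. The 95% intervals below cover counting error only, and every difference is one between these 3 libraries.

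BMP and TGF-beta ligands are dimers that bind pairs of type I and type II serine/threonine kinase receptors. BMPs act mainly through Smad1, Smad5 and Smad9, and TGF-betas through Smad2 and Smad3, and TGF-betas are secreted in a latent form that has to be released from matrix. Gremlin 1, from Grem1, binds BMP2 and BMP4 and keeps them from their receptors, and follistatin, from Fst, binds activins and more weakly some BMPs. In marrow these signals are known for roles in bone formation, in the fate of stromal progenitors and in the quiescence of haematopoietic stem cells.

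The genes lie on 6 chromosomes of GRCm38 (mm10). Bmp2 (ENSMUSG00000027358) is at chr2:133552159-133562885 on the plus strand and Grem1 (ENSMUSG00000074934) at chr2:113746164-113758646 on the minus strand. Bmp6 (ENSMUSG00000039004) is at chr13:38345107-38500302 (plus) and Fst (ENSMUSG00000021765) at chr13:114452290-114458951 (minus). Bmp4 (ENSMUSG00000021835) is at chr14:46383520-46390669 (minus), Tgfb1 (ENSMUSG00000002603) at chr7:25687002-25705077 (plus), Tgfb2 (ENSMUSG00000039239) at chr1:186622792-186705989 (minus) and Tgfb3 (ENSMUSG00000021253) at chr12:86056745-86079041 (minus). Promoter sequence was at hand for 5 of the 8 members in the RefSeq table of GRCm38.p6, and not for Bmp2, Tgfb3 and Fst. The 250 bases before the start of Grem1 and Bmp4 are shown because these are an antagonist and a ligand it binds, and both have most of their BMT UMIs in the same stromal class. Both read 5′ to 3′ on the minus strand, Grem1 at chr2:113758649-113758898 and Bmp4 at chr14:46390670-46390919, and capitals mark the Smad box CAGAC and the GC-rich BMP-Smad motif GGCGCC, searched on both strands.
Grem1: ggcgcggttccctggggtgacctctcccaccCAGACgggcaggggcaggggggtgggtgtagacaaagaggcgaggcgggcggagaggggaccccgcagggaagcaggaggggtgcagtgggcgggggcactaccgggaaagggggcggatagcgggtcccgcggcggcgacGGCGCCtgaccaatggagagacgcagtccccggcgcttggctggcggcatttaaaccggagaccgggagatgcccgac
Bmp4: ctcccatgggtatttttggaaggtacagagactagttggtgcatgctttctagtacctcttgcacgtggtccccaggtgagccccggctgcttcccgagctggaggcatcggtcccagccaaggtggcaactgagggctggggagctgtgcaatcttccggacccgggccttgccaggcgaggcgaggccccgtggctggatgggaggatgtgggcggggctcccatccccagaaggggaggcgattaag
The Grem1 window held 1 CAGAC, starting 219 bases before the start, and 1 GGCGCC, starting 78 bases before it. The Bmp4 window held neither. Of 32817 promoter windows of the same length, 42.2% held CAGAC and 9.59% held GGCGCC. The EBF motif CCCNNGGG occurred 1 time in each of the 2 windows and in 11.8% of all windows, while the GAS motif TTCNNNGAA (7.02% of windows) and TATAAA (12.4%) occurred in neither. These matches describe letters in a window and nothing about binding.

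Cells were called at 1000 UMIs, 500 genes and under 10% mitochondrial UMIs, which gave 7129 WT, 3621 BMT and 5568 aGVHD cells with median depths of 7355, 6932 and 6977.5 UMIs. The libraries shared 8 to 11 cell barcodes pairwise. Each cell was put in a class by gating on 17 marker lists, none of which holds a member. A class is therefore a resemblance to its markers. No gated class had more markers of another class than of its own among its 10 leading genes. That is no separate check, since the gate chose cells by the same markers. LepR stromal cells, the reticular cells that make Cxcl12, numbered 1029, 536 and 374 in WT, BMT and aGVHD. Endothelial cells numbered 521, 781 and 1179, fibroblasts 1385, 244 and 308, mural cells (pericytes and smooth muscle) 484, 105 and 92, tendon cells 252, 78 and 14 and osteolineage cells 185, 85 and 4. Ungated cells were 21.8%, 13.7% and 25.2% of the libraries. Levels are CPM, counts of a gene scaled to a common UMI total per class and library, and are compared between libraries and classes for 1 gene at a time. Empty droplets, barcodes of at most 100 UMIs, give the level of a droplet that holds nothing but free RNA. In the gated classes free RNA was estimated as a part of the UMIs only. A class at or below the empty-droplet level can therefore still hold UMIs of its own cells. In tendon cells fibroblast markers summed to 29663 CPM in WT and 25256 CPM in BMT, above tendon markers at 15650 and 17874 CPM.

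The members differed in which class held their UMIs. LepR stromal cells held 75.2% of the Grem1 UMIs of WT called cells and 92.4% and 90.0% of those of BMT and aGVHD, though they were 14.4%, 14.8% and 6.72% of the cells. They held 50.4%, 75.7% and 80.7% of the Fst UMIs in the same order. For Bmp6 their share was 60.5%, 63.0% and 25.8%, and endothelial cells held 60.6% of the aGVHD Bmp6 UMIs. Fibroblasts held 42.9%, 34.5% and 44.7% of the Tgfb2 UMIs. Bmp2 had no such main source in WT, where fibroblasts held 26.7% and chondrocytes 17.7%, while in aGVHD endothelial cells held 39.1%. Tgfb1 lay largely outside the niche classes, with 28.0%, 35.8% and 32.0% of its UMIs in gated haematopoietic cells and 27.8%, 24.4% and 55.9% in other and ungated cells. In aGVHD 4995 of the 9484 Tgfb1 UMIs lay in a cluster led by Gm15915 and Muc13. Of its 715 aGVHD cells 659 were ungated. These shares move with the number of cells of each class that passed the sort.

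**Figure D1:**
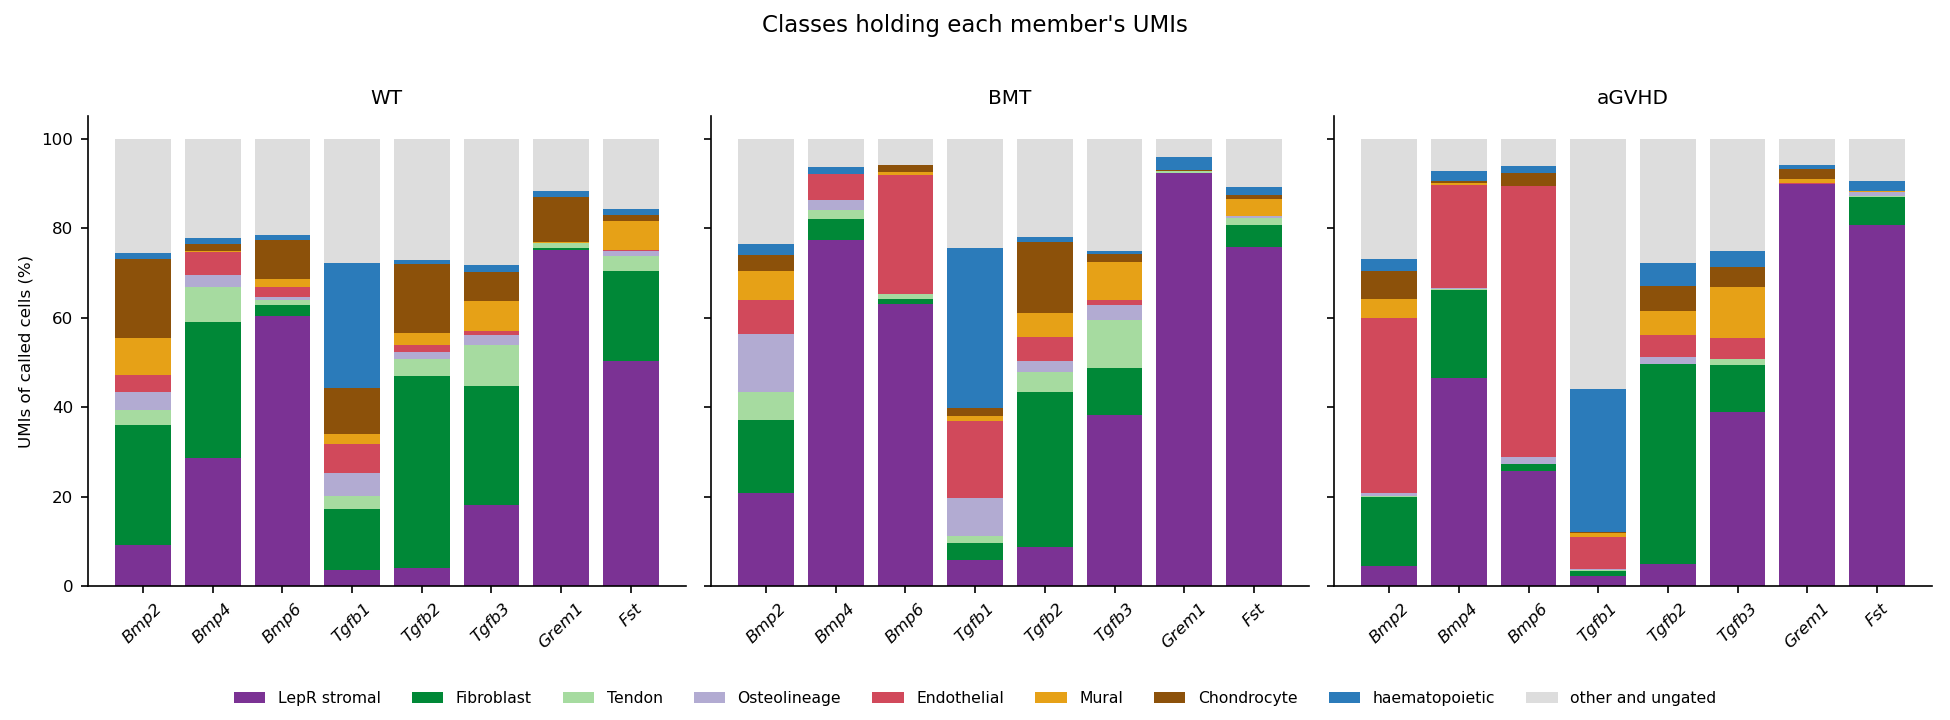
Share of each member's UMIs (%, y axis) held by each gated class, for the 8 members (x axis) in WT, BMT and aGVHD. LepR stromal cells fill most of the Grem1 bars (75.2%, 92.4% and 90.0%) and haematopoietic and ungated cells most of the Tgfb1 bars.

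A member's ratio between a pair of libraries passed the 2-fold rule under 3 conditions. The member needed 20 or more UMIs in the pair, its ratio had to be 2 or more (or 0.5 or less) with 1 outside the interval, and its higher level had to reach 2 times the empty-droplet level of that library. BMT and WT mice differed in irradiation and marrow transfer, and aGVHD and BMT mice in the added spleen cells. With 1 library per group, treatment and library cannot be told apart in either comparison. The 2 comparisons share the BMT library, so a high or low BMT value moves both. In LepR stromal cells 2 of 8 members were past the rule as higher in BMT than in WT (Bmp4 and Fst) and none as lower, where 3.20% of 12119 genes were higher and 0.899% lower. Between aGVHD and BMT, 2 of 8 were lower (Bmp4 and Bmp6) and none higher, where 4.05% of 11773 genes were lower and 1.37% higher. The median log2 ratio of the 8 members was -0.28 for BMT over WT and -1.16 for aGVHD over BMT, beside 0.14 and -0.15 for all genes.

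**Figure D2:**
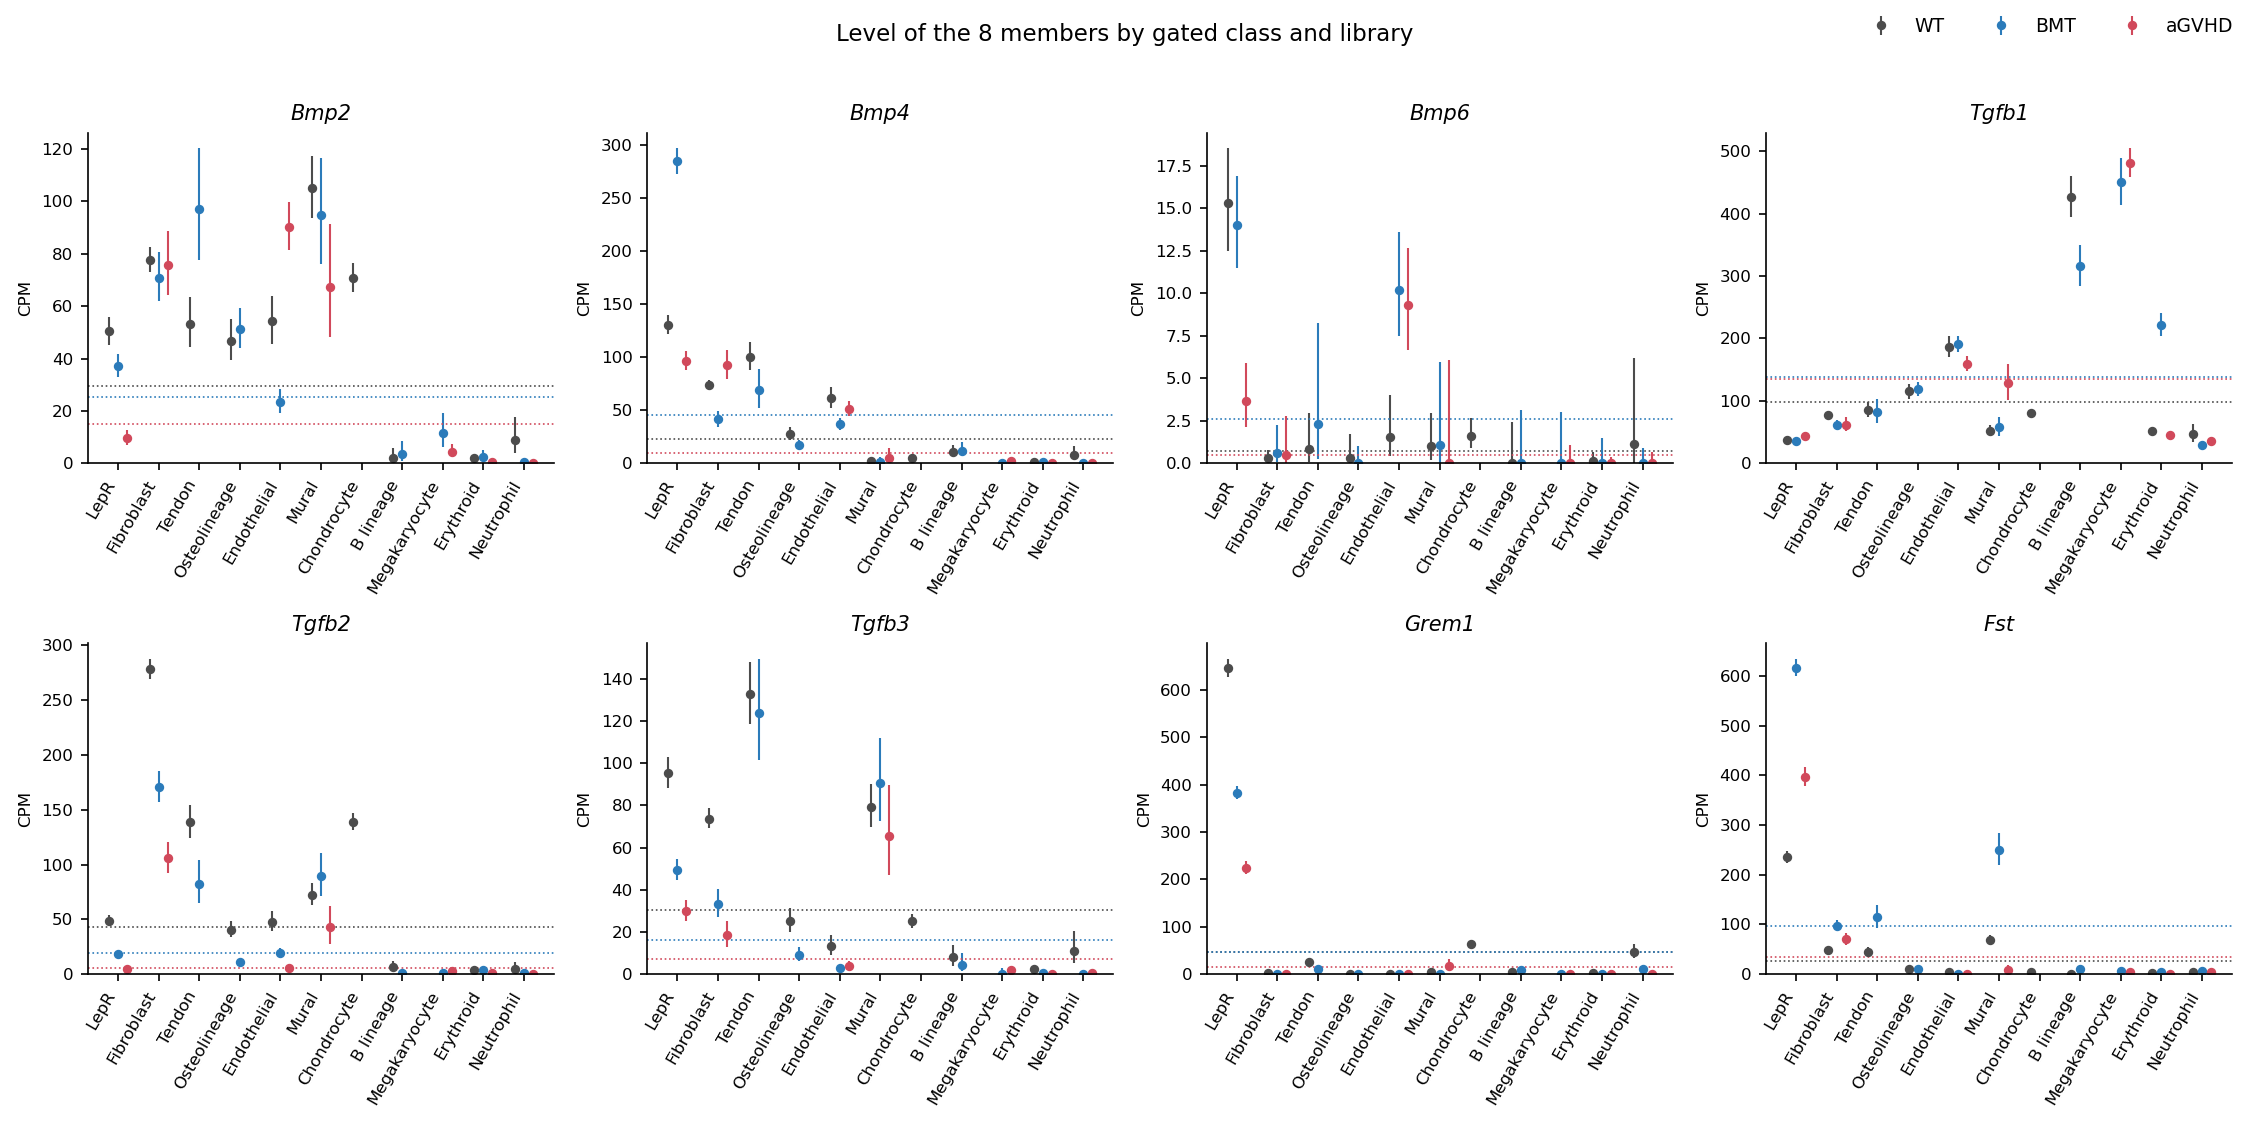
Level of each member (CPM, y axis) by gated class (x axis) in WT, BMT and aGVHD, with exact Poisson 95% intervals, and dotted lines at each library's empty-droplet level. Classes under 50 cells in a library are not drawn. Grem1 stands far above the dotted lines in LepR stromal cells, and Tgfb1 lies above them in B lineage cells and megakaryocytes.

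Among the antagonists, Grem1 was highest in LepR stromal cells in all 3 libraries and lower in each library than in the one before it. Its level was 646 CPM in WT (4395 UMIs), 383 CPM in BMT (2979 UMIs) and 224 CPM in aGVHD (1032 UMIs), against 45.8, 46.0 and 15.4 CPM in empty droplets. The 3 intervals do not overlap. BMT over WT was 0.592 (0.565 to 0.620) and aGVHD over BMT 0.586 (0.545 to 0.629), neither of which reached 2-fold. Over both steps, aGVHD stood at 0.347 of WT (0.324 to 0.371). Of the LepR stromal cells 81.5%, 73.5% and 59.9% had at least 1 Grem1 UMI. Median depth there was 5915, 14805 and 12151 UMIs per cell, and after thinning each cell to 1000 UMIs the shares were 43.5% (40.5 to 46.6), 25.0% (21.4 to 28.9) and 19.5% (15.6 to 23.9). In endothelial cells, which showed 0.786, 0.889 and 0.232 CPM of Grem1, a UMI was seen in 0.384%, 0.384% and 0.0848% of cells at median depths of 3805, 4563 and 2804 UMIs.

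Outside this class Grem1 was near or below the empty-droplet level in the niche classes. Fibroblasts had 20 UMIs in 1385 WT cells and 0 in 244 BMT and 308 aGVHD cells, where 3 UMIs would have given 0.933 and 1.49 CPM. WT chondrocytes, cells of cartilage, showed 62.7 CPM, 1.37 times their empty droplets. Of the WT clusters, that led by Cytl1 and Msmp held 333 CPM over 284 cells, while the chondrocyte cluster led by Col9a1 and Matn3 held 15.1 CPM over 488 cells. Tendon cells had 64 Grem1 UMIs in WT, of which 60 came from 10 cells.

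Fst had the opposite order of WT and BMT from Grem1. In LepR stromal cells it was at 235 CPM in WT (1599 UMIs), 616 CPM in BMT (4798 UMIs) and 397 CPM in aGVHD (1829 UMIs), so that BMT was highest and WT lowest. BMT was 2.62 times WT (2.48 to 2.78), past the rule, and aGVHD 0.645 of BMT (0.611 to 0.681), which was not. Empty droplets stood at 25.9, 97.5 and 33.6 CPM. A Fst UMI was seen in 59.2%, 87.1% and 79.7% of the cells, and in 20.6% (18.2 to 23.2), 37.7% (33.6 to 41.9) and 29.1% (24.6 to 34.0) at 1000 UMIs per cell. In endothelial cells Fst had 10 and 3 UMIs in WT and BMT, seen in 0.576% and 0.384% of the cells, and 0 UMIs in aGVHD, where 3 UMIs would have given 0.697 CPM.

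**Figure D3:**
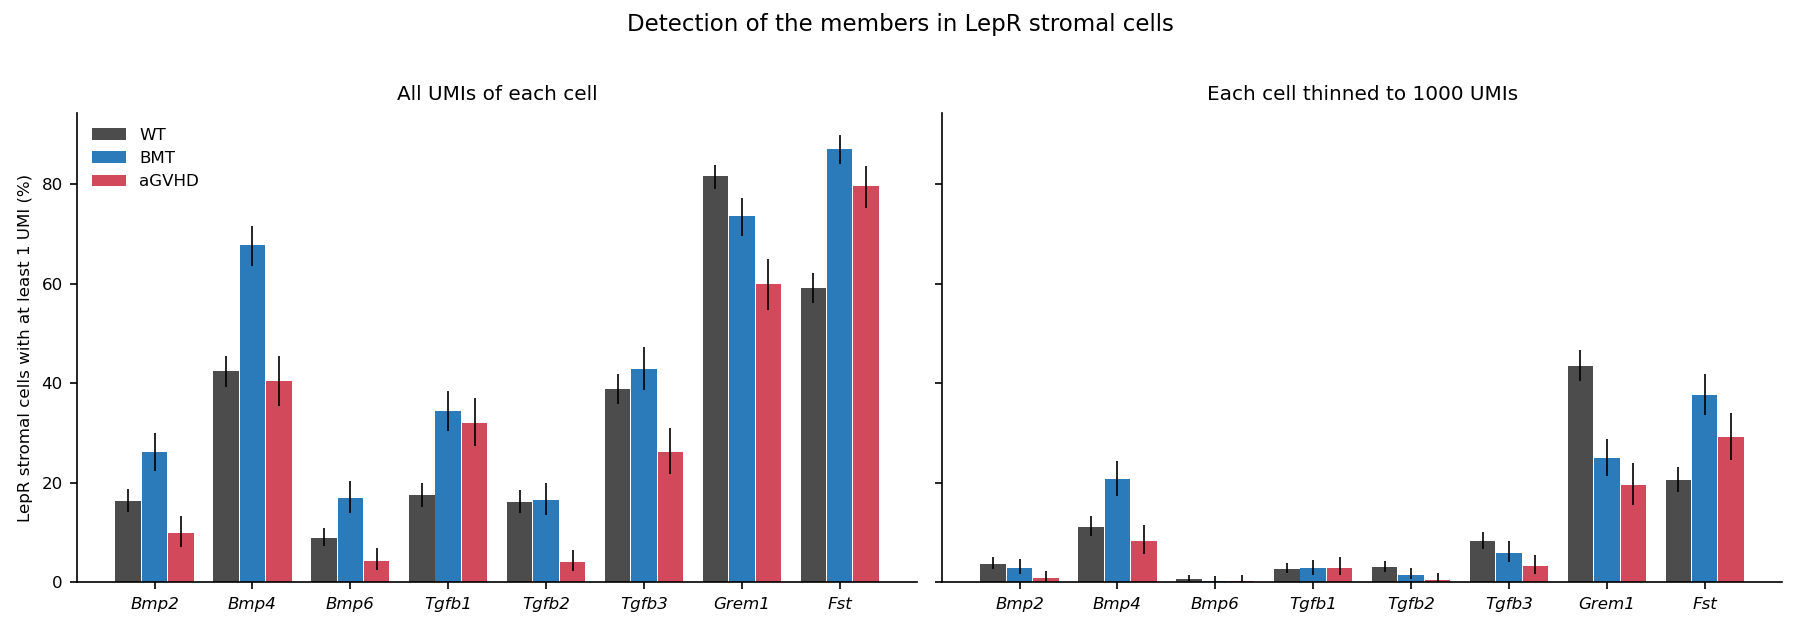
Percent of LepR stromal cells with at least 1 UMI of each member (y axis) in WT, BMT and aGVHD, with exact 95% intervals, on all UMIs (left) and after thinning each cell to 1000 UMIs (right). Grem1 is highest in WT and Fst highest in BMT in the thinned panel, at 43.5% and 37.7%.

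The LepR stromal gate did not hold the same clusters in every library. Of the WT cells 918 lay in a cluster led by Gdpd2 and Pappa, while 443 BMT and 323 aGVHD cells lay in one led by the chemokine gene Cxcl9, so within-cluster values exist for aGVHD and BMT alone. These values cover all 345 aGVHD and 476 BMT cells of that cluster, whatever their gate. There Grem1 was 0.582 (0.542 to 0.625), Fst 0.620 (0.587 to 0.654), Bmp4 0.327 (0.294 to 0.362) and Bmp6 0.287 (0.161 to 0.483) of BMT. Another 80 BMT and 46 aGVHD cells lay in a cluster led by Cfd and Krt19. Within that cluster, over all its 72 aGVHD and 115 BMT cells, Grem1 was 0.425 (0.283 to 0.6275) and Fst 0.4815 (0.339 to 0.6755) of BMT. Bmp4 was 0.0617 of BMT there (0.0163 to 0.166), on 4 and 66 UMIs. The 7 LepR stromal markers summed to 31955, 24205 and 18438 CPM in WT, BMT and aGVHD, all 7 detected in each. Those cells held fibroblast markers at a summed 2870, 718 and 814 CPM, all 7 detected, and osteolineage markers at 242, 91.8 and 49.1 CPM, with 1 of 8 at 0 in aGVHD. Chondrocyte markers summed to 579, 57.2 and 18.9 CPM, with 4 of 8 at 0 in aGVHD, tendon markers to 215, 19.8 and 6.30 CPM, with 3 of 7 at 0 in aGVHD, and Schwann cell markers to 218.5, 80.2 and 11.3 CPM, with 2, 1 and 2 of 7 at 0. Neutrophil markers summed to 122, 399 and 242 CPM, highest in BMT as Fst and Bmp4 were, with all 9 detected. T and NK cell markers summed to 3.97, 144.5 and 180 CPM, with 3, 2 and 2 of 8 at 0, and basophil markers to 1.03, 0.642 and 121 CPM, with 3, 3 and 1 of 6 at 0. Free RNA was estimated at 12.1%, 1.42% and 4.97% of their UMIs, from haemoglobin and neutrophil granule genes. The part of these marker lists in the members' ratios was not tested.

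Among the BMP ligands, Bmp4 was the one whose LepR stromal level passed the rule in both comparisons. It stood at 131 CPM in WT (888 UMIs), 284 CPM in BMT (2214 UMIs) and 96.7 CPM in aGVHD (445 UMIs), so BMT lay above both other libraries. BMT was 2.18 times WT (2.01 to 2.36) and aGVHD 0.340 of BMT (0.306 to 0.377). Cells with a Bmp4 UMI were 42.4%, 67.7% and 40.4%, and 11.2%, 20.7% and 8.29% at equal depth. Mural cells, with 8, 1 and 3 Bmp4 UMIs, had one in 1.24%, 0.952% and 2.17% of cells at median depths of 5344.5, 8251 and 5966 UMIs. Against WT, aGVHD was at 0.740 (0.659 to 0.831). With the highest doublet scores removed BMT was 1.96 times WT, and with free RNA subtracted 1.99 times, both short of the 2-fold boundary.

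In fibroblasts Bmp4 moved the other way. Its level was 73.7 CPM in WT, 41.4 CPM in BMT and 92.2 CPM in aGVHD, where BMT was lowest and below the 46.0 CPM of its empty droplets. BMT was 0.561 of WT (0.465 to 0.673), not past the rule, and aGVHD 2.23 times BMT (1.77 to 2.80), past it. Within the cluster led by the fibroblast genes Dpt and Apod the same ratio was 2.98 (2.25 to 3.96), and within the Pi16-led cluster 1.10 (0.700 to 1.71). Free RNA was estimated at 4.37%, 8.90% and 17.6% of the fibroblast UMIs, and with it subtracted the ratio of aGVHD to BMT was 2.68, still past the rule. Tendon cells held 101 CPM in WT and 68.7 CPM in BMT. WT skeletal muscle cells held 196 CPM over 64 cells, and mural cells 2.70, 1.07 and 4.93 CPM, under their empty droplets in each library.

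Bmp6, known in liver as the signal that raises hepcidin, was a low-count gene with 172, 173 and 66 UMIs in the called cells of WT, BMT and aGVHD. LepR stromal cells held 15.3 CPM in WT (104 UMIs), 14.0 CPM in BMT (109 UMIs) and 3.69 CPM in aGVHD (17 UMIs). The WT and BMT intervals overlap, and aGVHD lies below both. The ratios were 0.916 (0.693 to 1.21) and 0.264 (0.148 to 0.442), the latter past the rule. In endothelial cells Bmp6 was at 1.57 CPM in WT (4 UMIs), 10.2 CPM in BMT (46 UMIs) and 9.30 CPM in aGVHD (40 UMIs). BMT was 6.50 times WT (2.37 to 24.9), past the rule. Without the 10 cells with the most UMIs WT had 0 left and no ratio could be formed. Capillary-type cells, marked by Gpihbp1, made up 23.2%, 60.7% and 78.6% of the endothelial cells of the 3 libraries. Within them the values were 8.71, 16.0 and 11.6 CPM and the ratio of BMT to WT 1.84 (0.581 to 9.33), with 3 UMIs in WT. Within the endothelial cluster led by Sdpr and Kdr it was 0.837 (0.303 to 3.22).

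Bmp2, a ligand with strong bone-forming activity, was the member that stood out in endothelial cells of aGVHD. Its endothelial level was 54.2 CPM in WT (138 UMIs), 23.3 CPM in BMT (105 UMIs) and 90.4 CPM in aGVHD (389 UMIs), so aGVHD was highest and BMT lowest. BMT was 0.430 of WT (0.330 to 0.558), which fell outside the rule because WT stood at 1.84 times its empty droplets. aGVHD was 3.88 times BMT (3.12 to 4.86), past the rule, and 1.67 times WT (1.37 to 2.04). The UMIs lay in few cells, since 9.21%, 5.25% and 6.87% of endothelial cells had one, and 10 cells held 197 of the 389 UMIs in aGVHD. In LepR stromal cells Bmp2 stood at 50.4, 37.3 and 9.56 CPM, and aGVHD was 0.257 of BMT (0.183 to 0.353), outside the rule because BMT was at 1.48 times its empty droplets.

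The endothelial Bmp2 difference was not the same in each subset. Sinusoidal-type cells, marked by Stab2 and Flt4, held 43.7, 29.9 and 149.6 CPM in WT, BMT and aGVHD, and aGVHD was 5.01 times BMT (3.04 to 8.56). They lay in different clusters, since the cluster that had Stab2 among its leading genes held 59 of the 90 BMT cells but 17 of the 61 aGVHD cells. Another 18 aGVHD cells lay in a cluster led by the lymphatic gene Ccl21a, which held 7 of the BMT cells, and 15 and 1 lay in that led by Timp4 and Gpihbp1. The cluster led by Plvap and Selp held 11 of the aGVHD and 14 of the BMT cells. Of the 97 WT cells 27 lay in the cluster with Stab2, 33 in that led by Ccl21a and 32 in that led by Plvap and Selp. Capillary-type cells held 17.4, 2.22 and 50.5 CPM, with 5 UMIs in BMT and 144 in aGVHD, a ratio of 22.7 (9.51 to 71.0). Arterial-type cells held 72.9 CPM in WT and 77.1 CPM in BMT, and aGVHD had 27 of them, under the minimum of 50 cells. Within the joint cluster led by Plvap and Selp the levels were 57.5, 59.4 and 327 CPM and aGVHD was 5.50 times BMT (4.15 to 7.39). Within the cluster led by Timp4 and Gpihbp1, which held 1104 aGVHD but 67 BMT cells, aGVHD and BMT stood at 47.2 and 48.5 CPM, a ratio of 0.971 (0.541 to 1.92). The capillary cells of BMT lay mostly in another cluster, that led by Sdpr and Kdr, at 4.08 CPM. Capillary state and library therefore cannot be told apart for that ratio.

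**Figure D4:**
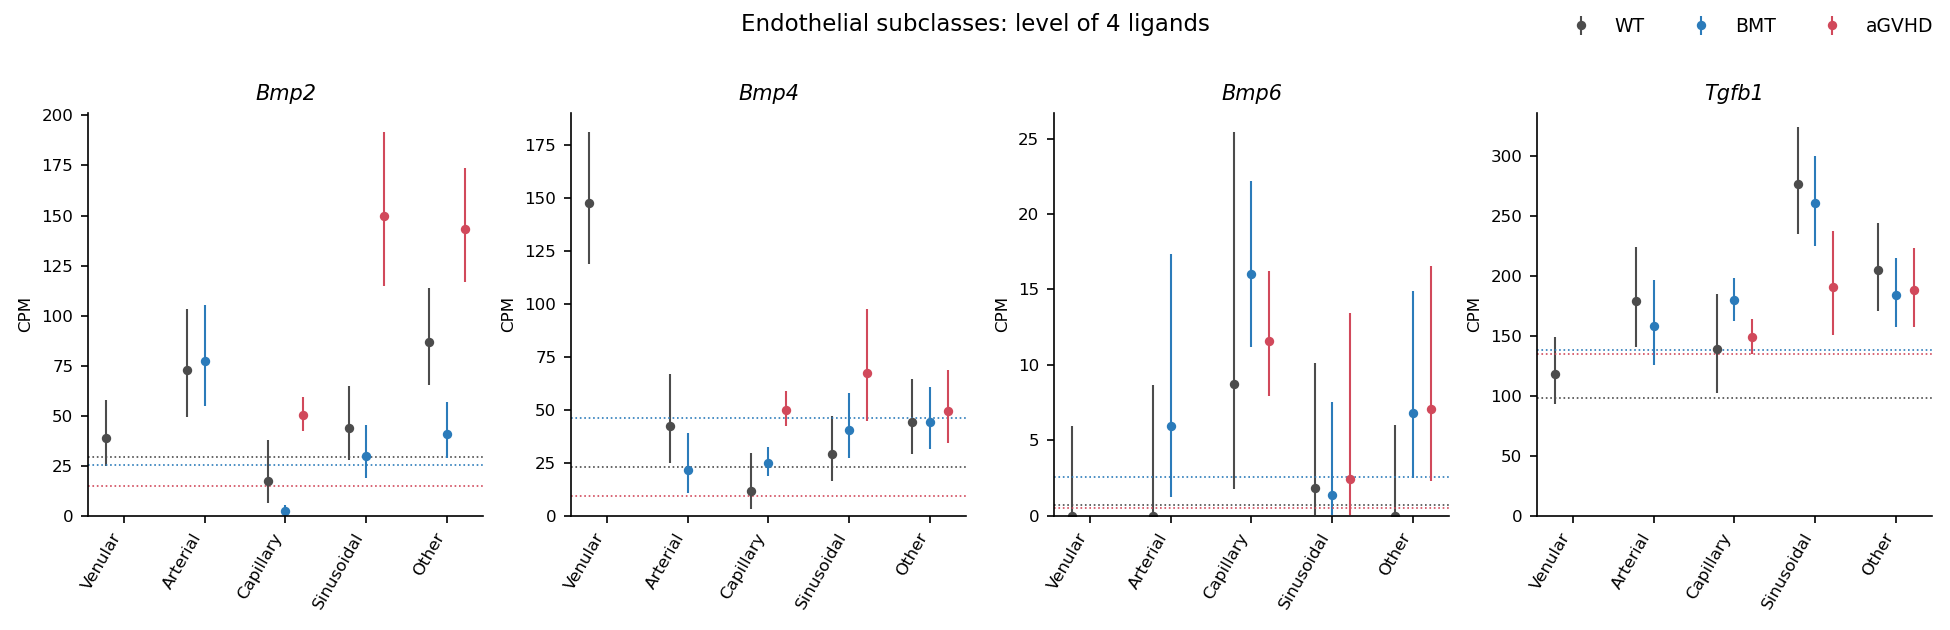
Level of Bmp2, Bmp4, Bmp6 and Tgfb1 (CPM, y axis) in endothelial subclasses gated by markers (x axis), with exact Poisson 95% intervals and dotted empty-droplet levels. Subclasses under 50 cells are not drawn, and the aGVHD points of Bmp2 lie above BMT in capillary (50.5 against 2.22 CPM) and sinusoidal cells (149.6 against 29.9 CPM).

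Bmp4 in endothelial cells stood at 61.3, 37.1 and 51.1 CPM, with no ratio past the rule. WT venular-type cells, marked by Selp and Ackr1, held 148 CPM and a UMI in 51.1% of 92 cells, against 11.6 CPM in WT capillary-type cells. BMT had 14 venular-type cells and aGVHD 11, so no level is given there. In capillary-type cells Bmp4 was 24.9 CPM in BMT and 50.1 CPM in aGVHD, a ratio of 2.01 (1.47 to 2.79). Within the cluster led by Timp4 and Gpihbp1 the order was the opposite, with 121 CPM in BMT (30 UMIs) and 51.5 CPM in aGVHD, a ratio of 0.425 (0.287 to 0.648). Fibroblast markers summed to 2124 CPM in WT endothelial cells and to 77.3 and 19.1 CPM in BMT and aGVHD, and their part in the WT levels was not tested.

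In the other niche classes Bmp2 differed less between libraries. Fibroblasts held 77.7, 70.9 and 75.8 CPM, with ratios of 0.913 (0.787 to 1.06) and 1.07 (0.865 to 1.32). Mural cells held 105, 94.9 and 67.3 CPM, at 3.56 to 4.50 times empty droplets, and neither of their ratios excluded 1. Tendon cells held 53.4 CPM in WT and 97.3 CPM in BMT, 1.82 times as much (1.37 to 2.42), under the 2-fold boundary. In BMT 10 cells held 58 of the 85 UMIs, and without the 10 cells with the most UMIs in each library the ratio was 0.859, on the other side of 1. Osteolineage cells, which include osteoblasts, held 46.9 and 51.2 CPM, a ratio of 1.09 (0.876 to 1.37). In tendon and osteolineage cells no member passed the rule in BMT over WT, where 2.13% and 0.439% of genes were higher and 1.15% and 0.983% lower.

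Among the TGF-beta ligands, Tgfb2 was highest in fibroblasts, of the classes with at least 50 cells in a library. Their level was 278 CPM in WT (3576 UMIs), 171 CPM in BMT (549 UMIs) and 106 CPM in aGVHD (213 UMIs), 3 intervals that do not overlap. BMT was 0.614 of WT (0.560 to 0.672) and aGVHD 0.618 of BMT (0.525 to 0.725), so each step was under 2-fold and aGVHD stood at 0.380 of WT (0.329 to 0.436). Empty droplets stood at 43.4, 19.1 and 5.48 CPM in the same libraries. Mural cells held 72.6, 89.5 and 42.7 CPM, and aGVHD was 0.477 of BMT (0.295 to 0.748), past the rule on 26 and 84 UMIs. With free RNA subtracted that ratio was 0.513 and without mitochondrial, ribosomal and haemoglobin genes 0.506, both short of the rule. Fibroblast markers in mural cells summed to 1287, 421 and 34.5 CPM in WT, BMT and aGVHD, with 3 of 7 at 0 in aGVHD, neutrophil markers to 90.9, 506 and 184 CPM and erythroid markers to 92.9, 28.8 and 271 CPM, and their part in the mural values was not tested. WT arterial-type endothelial cells held 136 CPM and BMT ones 87.0 CPM, against 17.4 and 6.23 CPM in capillary-type cells. WT chondrocytes held 139 CPM and WT skeletal muscle cells 172 CPM. In LepR stromal cells Tgfb2 was at 48.8, 18.0 and 5.00 CPM, which is 0.912 to 1.13 times the empty droplets. With the estimated free RNA subtracted, 296 of the 332 WT UMIs, 138 of the 140 BMT UMIs and 21.7 of the 23 aGVHD UMIs were left there.

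Of the gated classes Tgfb3 was highest in tendon cells in the 2 libraries with at least 50 of them. It stood there at 133 CPM in WT and 124 CPM in BMT, with a UMI in 63.5% and 62.8% of cells. Of these cells 68 of 252 in WT and 29 of 78 in BMT lay in a cluster led by Tnn and Postn. That cluster held 157 and 127 CPM of Tgfb3. The cluster led by Angptl7 and Kera, with 172 and 46 of the tendon cells, held 90.6 and 61.7 CPM. In fibroblasts it was at 73.7 CPM in WT (948 UMIs), 33.3 CPM in BMT (107 UMIs) and 18.3 CPM in aGVHD (37 UMIs). BMT was 0.452 of WT (0.366 to 0.552), past the rule, and aGVHD 0.551 of BMT (0.368 to 0.808). LepR stromal cells showed the same order at 95.2, 49.5 and 29.8 CPM, with ratios of 0.520 (0.457 to 0.591) and 0.602 (0.492 to 0.733). Mural cells held 79.4, 90.6 and 65.7 CPM, and both of their intervals included 1.

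Tgfb1 differed from the other 2 in that no niche class stood 2 times above empty droplets, which were at 98.6, 138 and 135 CPM. LepR stromal cells held 38.2, 36.4 and 44.1 CPM and fibroblasts 77.2, 61.0 and 62.0 CPM, all below those levels. Endothelial cells held 186, 191 and 159 CPM, at 1.89, 1.39 and 1.19 times empty droplets. Of the endothelial subclasses, WT sinusoidal-type cells held 277 CPM, 2.81 times, and WT cells of no subclass 205 CPM, 2.08 times. Of those 97 sinusoidal-type cells 27 lay in the cluster with Stab2 among its leading genes. Another 33 lay in the cluster led by the lymphatic gene Ccl21a, which held 261.5 CPM of Tgfb1 in WT. The cluster led by Plvap and Selp, with 32 of them, held 174.8 CPM, so the value is not one of Stab2-type cells alone. The haematopoietic classes that passed the sort ranged widely. B lineage cells held 426 CPM in WT and 315 CPM in BMT, and megakaryocytes, cells whose platelets are a known store of TGF-beta 1, held 450 CPM in BMT and 482 CPM in aGVHD. Neutrophils held 46.7, 29.8 and 36.2 CPM, at 0.474, 0.216 and 0.269 times empty droplets. Erythroid cells held 51.7 CPM in WT, 222 CPM in BMT and 46.2 CPM in aGVHD, and BMT was 4.30 times WT (3.78 to 4.89) at 1.61 times its empty droplets. The erythroid gate held different clusters in each library, since 67 of its 137 BMT cells lay in an unnamed cluster led by Gm15915 and Muc13, against 9 of 543 in WT and 15 of 928 in aGVHD. That cluster held 406 CPM of Tgfb1 in BMT and 362 CPM in aGVHD. In mural cells aGVHD was 2.22 times BMT (1.55 to 3.21), from 57.6 to 128 CPM, which is under the 135 CPM of the aGVHD empty droplets.

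In mural cells Fst differed most between libraries, but on few cells. Its level was 67.9 CPM in WT (201 UMIs), 250.5 CPM in BMT (235 UMIs) and 8.21 CPM in aGVHD (5 UMIs). BMT was 3.69 times WT (3.04 to 4.48) and aGVHD 0.0328 of BMT (0.0105 to 0.0776), both past the rule. The UMIs were in few cells, 13.4%, 13.3% and 3.26% of the mural cells, and 1 BMT cell held 158 of the 235. Without the cell with the most UMIs in each library BMT was 1.33 times WT, no longer past the rule, and without the 10 such cells it was 0.124 of WT, since 10 cells held 231 of the 235 UMIs in BMT. In WT the Rgs5-led pericyte-type cluster held 227 CPM of Fst over 126 cells and the Myh11-led smooth muscle-type cluster 20.2 CPM over 411, where BMT and aGVHD stood at 334 and 11.5 CPM. The Rgs5-led cluster had 10 BMT and 9 aGVHD cells. In fibroblasts Fst was at 49.5, 96.8 and 69.9 CPM, with ratios of 1.96 (1.70 to 2.24) and 0.722 (0.588 to 0.884). The BMT level there was 0.992 times that of the BMT empty droplets. In tendon cells Fst was 44.7 CPM in WT and 115 CPM in BMT, 2.56 times (1.93 to 3.40) but at 1.17 times the BMT empty droplets.

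**Figure D5:**
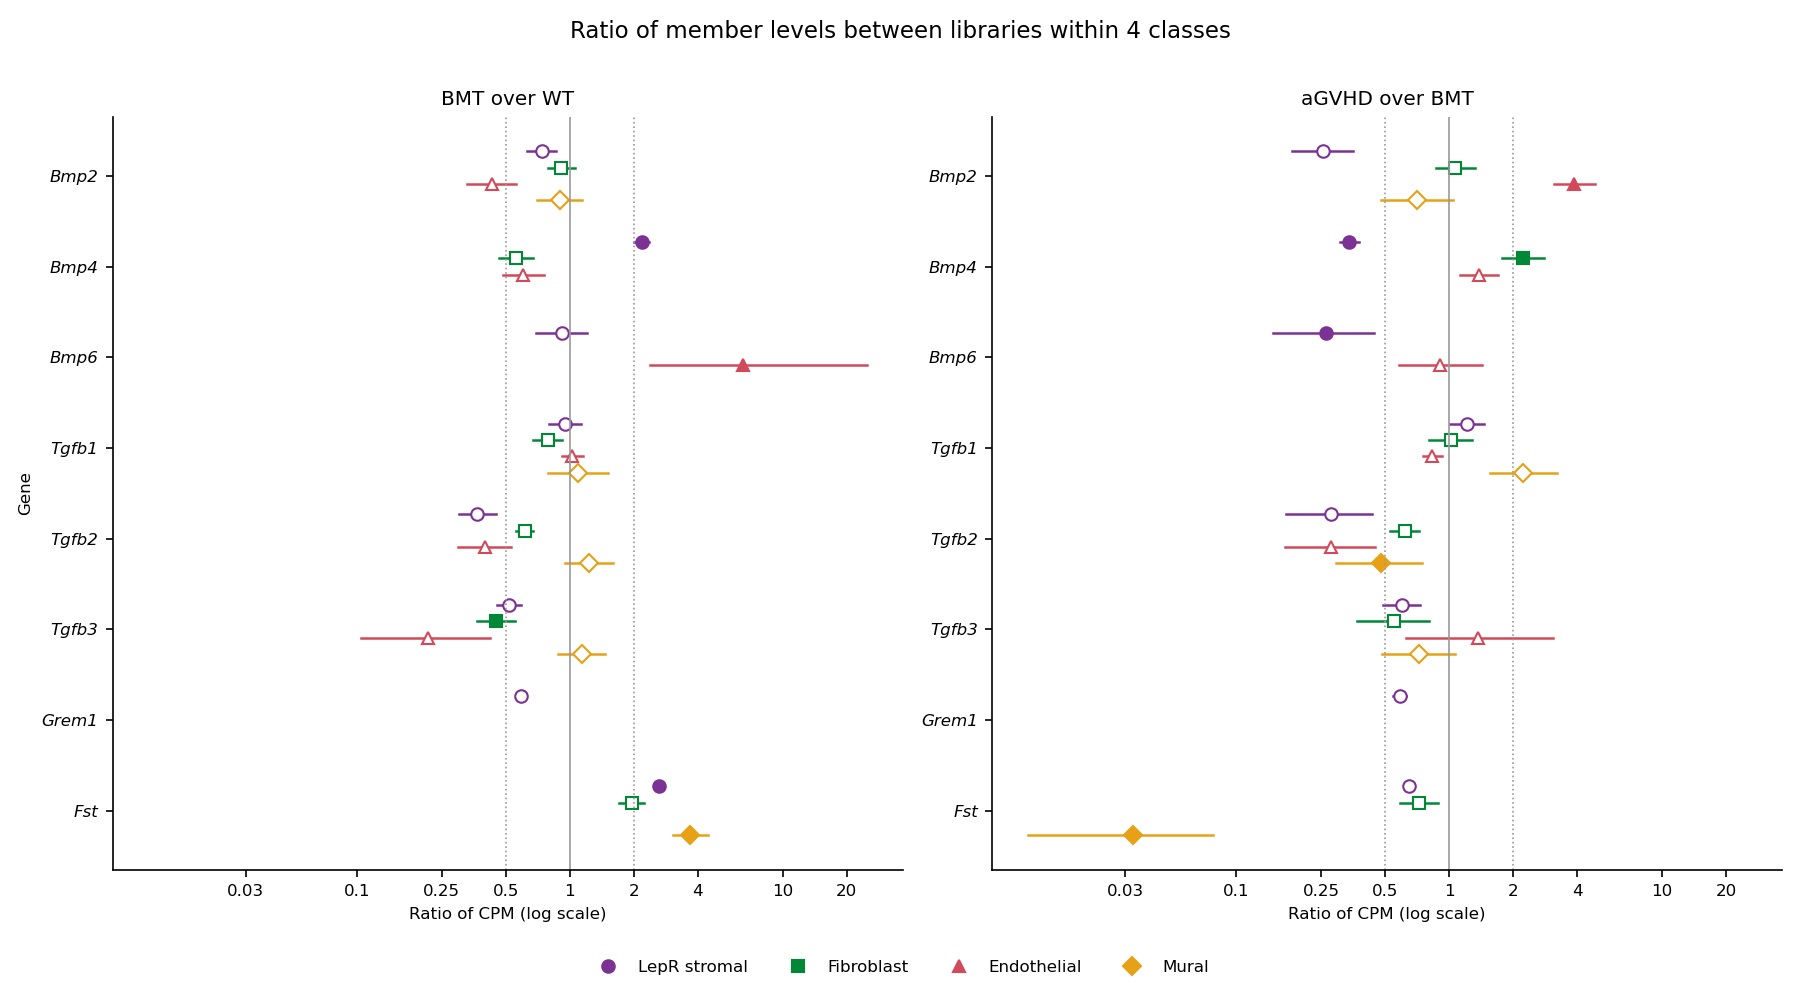
Ratio of CPM (x axis, log scale) for BMT over WT and aGVHD over BMT in 4 classes, for members with UMIs in both libraries and at least 20 in all. Lines are exact 95% intervals, filled symbols pass the 2-fold rule and dotted lines mark 0.5 and 2. Bmp4 lies left of 1 in LepR stromal cells (0.340) and right of it in fibroblasts (2.23) for aGVHD over BMT.

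In the other 3 classes with both comparisons few members were past the rule. Fibroblasts had 1 of 7 measured members lower (Tgfb3) and none higher in BMT over WT, where 1.07% of genes were lower and 1.29% higher. They had 1 of 6 higher (Bmp4) and none lower in aGVHD over BMT, where 1.35% were higher and 2.93% lower. Endothelial cells had 1 of 6 higher in each comparison, Bmp6 in BMT over WT (2.73% of genes higher, 2.26% lower) and Bmp2 in aGVHD over BMT (1.60% higher, 2.26% lower), and none lower. Endothelial Tgfb2 was 0.3985 of WT in BMT (0.299 to 0.5295) and 0.280 of BMT in aGVHD (0.1685 to 0.4475). Tgfb3 was 0.216 of WT in BMT (0.105 to 0.420). These 3 ratios fell outside the rule because the higher levels were under 2 times the empty droplets. Mural cells had 1 of 5 higher (Fst) in BMT over WT, where 1.73% of genes were higher and 1.41% lower. They had 2 of 5 lower (Fst and Tgfb2) in aGVHD over BMT, where 2.75% were lower and 0.884% higher.

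The other genes of the pathway were counted in LepR stromal cells by lists set by name. Of 13 measured receptors none was past the rule in BMT over WT and 1, the activin type II receptor gene Acvr2a, was lower in aGVHD over BMT (104.6 to 38.2 CPM, 0.366, 0.309 to 0.431). The BMP type II receptor gene Bmpr2 stood at 133, 140 and 118 CPM, and Bmpr1a at 70.7, 61.3 and 61.7 CPM. The co-receptor gene Tgfbr3 stood at 555, 460 and 357 CPM. Of 11 other antagonists none was past the rule in BMT over WT, while 3 were lower (Chrdl1, Bmper and Nog) and 1 higher (Fstl3) in aGVHD over BMT. Chrdl1, a chordin-like BMP antagonist, was at 716, 867 and 358 CPM, and aGVHD was 0.413 of BMT (0.392 to 0.436). Fstl3, which like follistatin binds activins, was 4.01 times BMT (2.52 to 6.54), from 3.47 to 13.9 CPM. The follistatin-like gene Fstl1 stood at 1954, 1936 and 1604 CPM, and Twsg1 at 68.4, 65.6 and 63.7 CPM. Nbl1, another BMP antagonist gene, stood at 99.3, 6.55 and 9.78 CPM, not past the rule. Of the other ligands 7 were measured in BMT over WT with none past the rule, and of 8 in aGVHD over BMT 1, Gdf11, was lower. Bmp5 was at 107, 119 and 86.1 CPM and Bmp1, whose product is a protease that cleaves procollagen and chordin, at 81.2, 52.0 and 76.5 CPM. Of 8 latency genes 1, the latent TGF-beta binding protein gene Ltbp1, was lower in BMT than in WT (213 to 102 CPM, 0.476, 0.436 to 0.520) and none was past the rule in aGVHD over BMT. Ltbp2 stood at 463, 412 and 355 CPM and Thbs1, whose product can release TGF-beta from its latent form, at 261, 314 and 510 CPM.

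Of 7 measured genes that BMP signalling is known to induce, 3 were past the rule in LepR stromal cells as lower in aGVHD than in BMT (Id4, Smad6 and Atoh8), 4 passed in neither direction and none was higher. Of all genes 4.05% were lower there, and the list had a median log2 ratio of -1.55 beside -0.15 for all genes. Id4, an inhibitor of helix-loop-helix factors, was at 185 CPM in WT, 160 CPM in BMT and 44.3 CPM in aGVHD, and aGVHD was 0.278 of BMT (0.238 to 0.322). Smad6, an inhibitory Smad, was at 22.7, 31.1 and 10.7 CPM, with 0.343 (0.247 to 0.467). Id1, Id2 and Id3 stood at 0.271 (0.228 to 0.321), 0.314 (0.251 to 0.390) and 0.455 (0.438 to 0.472) of BMT, each more than 2-fold lower but not past the rule, because their BMT levels were under 2 times its empty droplets. In BMT over WT none of 8 was past the rule, with a median of -0.13 beside 0.14. Smad6 is also in the list of Smads and regulators, where it was the 1 of 11 past the rule in aGVHD over BMT, and none of 12 was in BMT over WT. Smad4, the Smad shared by both branches, was at 75.9, 99.7 and 85.0 CPM and the inhibitory Smad7 at 160, 151 and 116 CPM. Of the 8 TGF-beta-induced genes none was past the rule in either comparison, with medians of -0.21 and -0.38. Ctgf, a matrix-associated growth factor gene, was at 689, 351 and 274 CPM. These lists were set with earlier results of the data known, and activity of the pathway was not measured.

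In endothelial cells no gene of the lists of receptors, other antagonists, other ligands, Smads or induced genes was past the rule in either comparison. Of the latency genes Ltbp4 was lower in BMT than in WT, at 333 against 780 CPM (0.427, 0.400 to 0.457). Id1 stood at 943, 1138 and 974 CPM and Id3 at 1733, 1316 and 1584 CPM. Among receptors Eng, the co-receptor endoglin, stood at 769, 671 and 577.5 CPM and Acvrl1, an endothelial BMP type I receptor, at 121, 182 and 162 CPM. In fibroblasts the ligand gene Inhbb, an activin subunit, was 4.67 times BMT in aGVHD (3.03 to 7.39), and Gdf10, Nog, Ltbp4 and Tgfbi were lower. In mural cells Rgma and Msx1 were lower in BMT than in WT, while Fstl3 was higher and Gdf11 and Smad6 lower in aGVHD than in BMT.

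Across the 32 combinations of class and library with at least 50 cells, the genes whose log2(CPM + 1) was most like a member's were named by Pearson correlation among 10842 genes. Grem1 was most like Gdpd2 (r = 0.886), Adipoq (0.858) and Cnnm1 (0.825), and the first 2 of these are markers the LepR stromal gate used. Fst was most like Dact1 (0.876), Bmp5 (0.874) and Nnmt (0.873). The Bmp4 profile was nearest to Nradd (0.858), and that of Bmp6 to Akr1c14 (0.879). For Bmp2 the nearest gene was Lamb2 (0.946), for Tgfb1 Lsm11 (0.813), for Tgfb2 Pkd1 (0.913) and for Tgfb3 Dact3 (0.923). The combinations share libraries, depth and free RNA, and these correlations are descriptions with no p-value.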

How the data were processed

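The deposited files hold raw counts: whole UMIs per gene and barcode, empty droplets included, per the file headers and values. Cell Ranger 3.1.0 wrote the matrices, per the file headers, and the notes of the submitters on processing also name Seurat and the mm10 build. Gene positions come from GENCODE vM21 and promoters from RefSeq. A marker counted for a cell when its CPM was over 2 times the empty-droplet CPM of its library. A class needed at least 3 markers and 2 more than any other class, and an endothelial subclass 2 and 1 more, rules set after the files were seen. Doublets were kept, and Scrublet scores (scanpy 1.11.5) were used as an alternative. UMIs were summed per class and library. CPM carries exact Poisson, shares Clopper-Pearson and ratios conditional exact 95% intervals, which assume independent UMIs. The simulated data on which they were run also drew UMIs independently. That run therefore cannot show how the intervals behave where few cells hold most UMIs. A floor of 3 UMIs applies to counts of 0, and classes under 50 cells were left out. Levels of all 8 members are reported, the pathway lists by their counts past the rule and their genes with the most UMIs, and by likeness the genes with the highest correlation. Further list genes past the rule, and Id2, Id3 and Smad6, were named after their values were seen. The members and lists were chosen with earlier results of these data known. Some list genes are not reported here.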

Additional observations from a re-analysis of the deposited data

Results flagged for a closer look

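Bmp4 and Bmp2 each differed in opposite directions in 2 cell classes under the same comparison, aGVHD over BMT, and the difference between the classes was not tested. Bmp4 was 0.340 of BMT in LepR stromal cells and 2.23 times BMT in fibroblasts. Bmp2 was 0.257 of BMT in LepR stromal cells and 3.88 times BMT in endothelial cells.

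Cells that no gate took in, which the comparisons between gated classes leave out and the values within joint clusters include, held Tgfb2 above the empty droplets. The level in those cells was 3.32 times that of empty droplets in WT (144 CPM) and 2.75 times in BMT (52.5 CPM), and in aGVHD it was 1.29 times.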

How the results depend on the processing

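Over all settings 691 member ratios were recomputed, of which 664 stayed on their side of 1 and 625 within the interval first reported. Without the 10 cells with the most UMIs, which are a larger share of a small class, 54 of 62 stayed on their side and 28 within the interval, and 8 of 10 calls still passed the rule. There Bmp2 in tendon cells (first 1.82) was 0.859, mural Bmp2 (0.903) 0.530, and Fst 1.26 in fibroblasts (1.96) and 1.504 in tendon cells (2.56), all BMT over WT. For aGVHD over BMT, LepR stromal Bmp6 (0.264) was 0.119 and mural Tgfb2 (0.477) 0.2497, both still past the rule. Bmp4 was then past the rule as lower in BMT than in WT in fibroblasts (0.330) and tendon cells (0.443). Taking 10 cells from each library removes a larger share of the UMIs where fewer cells hold them. For mural Tgfb2 that was 20 of 26 UMIs in aGVHD and 47 of 84 in BMT. For fibroblast Bmp4 it was 62 of 133 in BMT and 88 of 948 in WT. This setting therefore cannot test calls of a lower level in the library with fewer such cells. No paired analysis was possible because each group is 1 library. For the same reason no replicate was left out.

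In LepR stromal cells BMT over WT, Bmp4 (first 2.18) was 2.01 with classes from joint clusters, 1.96 with the highest doublet scores removed, 1.99 with free RNA subtracted, 2.001 with median-of-ratios scaling and 1.90 with each cell weighted equally, where values under 2 no longer met the rule. Grem1 (0.592) was 0.540, 0.532, 0.534, 0.544 and 0.509 under the same settings, 0.564 without mitochondrial, ribosomal and haemoglobin genes, and 0.531 without the 10 cells with the most UMIs. Fst (2.62) was 2.41 with the highest doublet scores removed, 2.37 with free RNA subtracted, 2.41 with median-of-ratios scaling and 2.30 with cells weighted equally. For aGVHD over BMT, Fst (0.645) was 0.603 in joint clusters, 0.689 with median-of-ratios scaling and 0.714 with cells weighted equally, where Grem1 (0.586) was 0.653, and Bmp4 (0.340) was 0.279 without the 10 cells.

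Mural Fst BMT over WT (3.69) was 4.88 in joint clusters, 2.87 with cells weighted equally, 1.33 without the cell with the most UMIs and 0.124, on the other side of 1, without the 10 such cells, where aGVHD over BMT was 0. Few cells hold those UMIs, which bears on the values with cells left out. For the joint clusters the cause was not tested. Without the 10 cells endothelial Bmp6 BMT over WT gave no ratio. Leaving out 1 or 10 cells, and LepR stromal cells without a cluster led by Cfd and keratin genes, were chosen after seeing the data.

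Calls were also counted as combinations of a member and a niche class, so 1 member can count in several classes. Combinations lower in BMT than in WT were 1 at first and 7 at 1.5-fold. They were 2 with free RNA subtracted, 3 without mitochondrial, ribosomal and haemoglobin genes and 2 with median-of-ratios scaling. Combinations lower in aGVHD than in BMT were 4 at first and 9 at 1.5-fold. With a mitochondrial share under 5% they were 2, where fewer classes kept 50 cells. The counts of all genes at these settings are not reported here. Depth limits Bmp6 most, with 66 to 173 UMIs per library.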
